A study of Mus musculus with 207 samples.

Results

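Small nucleolar RNAs were followed through the single-cell transcriptomes of mouse pancreatic beta cells. The members were all rows of the deposited TPM table (a length-corrected share of each cell's RNA, scaled to a total of 1000000) whose symbol begins with Snord or Snora. They were 114 of 44448 rows, 76 of the box C/D class (Snord) and 38 of the box H/ACA class (Snora), out of 133 such symbols in the RefSeq gene table used for names. The series held 207 islet cells of male mice, 138 young cells from mice aged 3 months and 69 old cells from mice aged 26 months. No treatment or genetic change is named in the labels for either age. All were captured one at a time on a Fluidigm C1 chip, reverse transcribed with the SMARTer Ultra Low kit and made into libraries with Nextera XT. The labels name no animal, so each age is 1 sample, cells are not replicates, and no test between ages was possible.

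C/D snoRNAs guide the methylation of ribose in ribosomal and spliceosomal RNA together with the methyltransferase fibrillarin, and H/ACA snoRNAs guide the conversion of uridine to pseudouridine together with dyskerin. A few, among them Snord13 (U13), Snord118 (U8), Snord22 (U22) and Snora73a and Snora73b (U17), are known for a part in the cleavage of ribosomal RNA precursors. Most are cut out of the introns of host genes, many of them genes of ribosomal proteins or of noncoding RNAs of the Snhg family, and the mature forms carry no poly(A) tail. Kits of the SMARTer Ultra Low type start cDNA from poly(A) tails, so the rows below show what such a library held under a snoRNA's name and not the amount of mature snoRNA in the cell. Whether a read came from a mature snoRNA, a precursor or a host transcript was not tested.

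The sequences of 5 of the rows seen in the most cells show what the 2 classes look like. They are from GENCODE release M21 on build GRCm38, which held 112 of the 114 members, and are written as DNA, 5′ to 3′. Capitals mark the letters TGATGA (box C) and CTGA (box D) in C/D members and the letters ACA that stand 3 bases from the 3′ end in H/ACA members.
Snord118: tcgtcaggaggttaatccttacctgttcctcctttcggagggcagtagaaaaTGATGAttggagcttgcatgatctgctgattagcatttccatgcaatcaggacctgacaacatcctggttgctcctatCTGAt
Snord104: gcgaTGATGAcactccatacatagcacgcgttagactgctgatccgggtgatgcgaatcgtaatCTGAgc
Snord22: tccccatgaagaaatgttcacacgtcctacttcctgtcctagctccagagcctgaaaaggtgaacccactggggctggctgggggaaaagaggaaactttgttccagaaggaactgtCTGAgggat
Snora70: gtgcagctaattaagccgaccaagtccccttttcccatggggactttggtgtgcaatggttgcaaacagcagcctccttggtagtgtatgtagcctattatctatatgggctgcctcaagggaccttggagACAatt
Snora81: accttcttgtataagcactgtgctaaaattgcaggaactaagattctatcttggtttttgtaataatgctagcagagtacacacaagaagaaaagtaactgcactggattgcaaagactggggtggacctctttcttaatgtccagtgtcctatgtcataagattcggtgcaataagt
TGATGA was searched in the part up to the midpoint, CTGA in the last 20 bases and ACA at exactly 3 bases from the end, on the RNA strand only. TGATGA was found in 50 of 74 C/D members (67.6%) and in 0 of 38 H/ACA members. CTGA was found in 72 of 74 C/D members (97.3%) and in 4 of 38 H/ACA members. ACA stood at its place in 0 of 74 C/D and in 29 of 38 H/ACA members (76.3%). Snord22 had no TGATGA in its window, and Snora81 had no ACA at that place. The printed Snord118 is chr11:69073427-69073561, Snord104 chr11:106500993-106501062, Snord22 chr19:8725866-8725991, Snora70 chrX:74272484-74272620 and Snora81 chr16:23110756-23110933, all on the plus strand.

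Some facts of the whole series bear on the values. Within each age, the cell numbers in the sample titles fall into stretches that an earlier look at these data had found to stand apart on detected rows, mitochondrial RNA and abundant nuclear RNAs such as Malat1. They are cells 1 to 54 and 55 to 138 (young) and cells 139 to 158, 159 to 190 and 191 to 207 (old), with 54, 84, 20, 32 and 17 cells. What the stretches are is not given in the labels. The median number of rows at TPM 1 or above was 3791, 4633, 4571, 3634 and 3614 in that order, and mean Malat1 was 313, 3231, 2385, 216 and 2020 TPM. The beta cell markers summed to a median of 622816 TPM in the young cells and 593490 TPM in the old ones. Markers of acinar, endothelial and fibroblast cells had medians of 0 at both ages. Marker sums of other islet and duct cells had low medians above 0: 66.0 TPM in young and 10.7 in old for alpha, 30.2 and 69.5 for delta, 13.3 and 25.0 for PP and 35.9 and 54.5 for duct cells. A list of 4 macrophage markers, also at a median of 0, reached 13719 TPM in 1 young cell. The depth behind a TPM value is unknown.

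Of the 114 members, 56 were seen, meaning that they reached TPM 1 in at least 1 cell, and 58 were at 0 in every cell. A row at 0 in all 207 cells allows a share of up to 1.45% of cells, taken as 3 of 207, and the exact 95% interval ends at 1.77%. Among all rows of the table, 46.1% were seen in at least 1 cell, against 49.1% of the members. Only 7 members were seen in 10 or more cells: Snord13 in 113, Snora70 in 29, Snora81 in 24, Snord104 in 21, Snord118 in 20, Snord22 in 19 and Snora31 in 10. A further 30 were seen in 2 to 9 cells and 19 in exactly 1. In all there were 368 detections, a detection being 1 member seen in 1 cell, of which 113 were Snord13. No member had a value between 0 and 1 TPM. The lowest value above 0 was 2.14 TPM, the median 11.8 TPM and the highest 306.9 TPM. Over all rows of the table, 31.4% of the values above 0 lay under 1 TPM. TPM divides by length, so the same number of reads gives a higher value on a short row than on a long one.

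**Figure D1:**
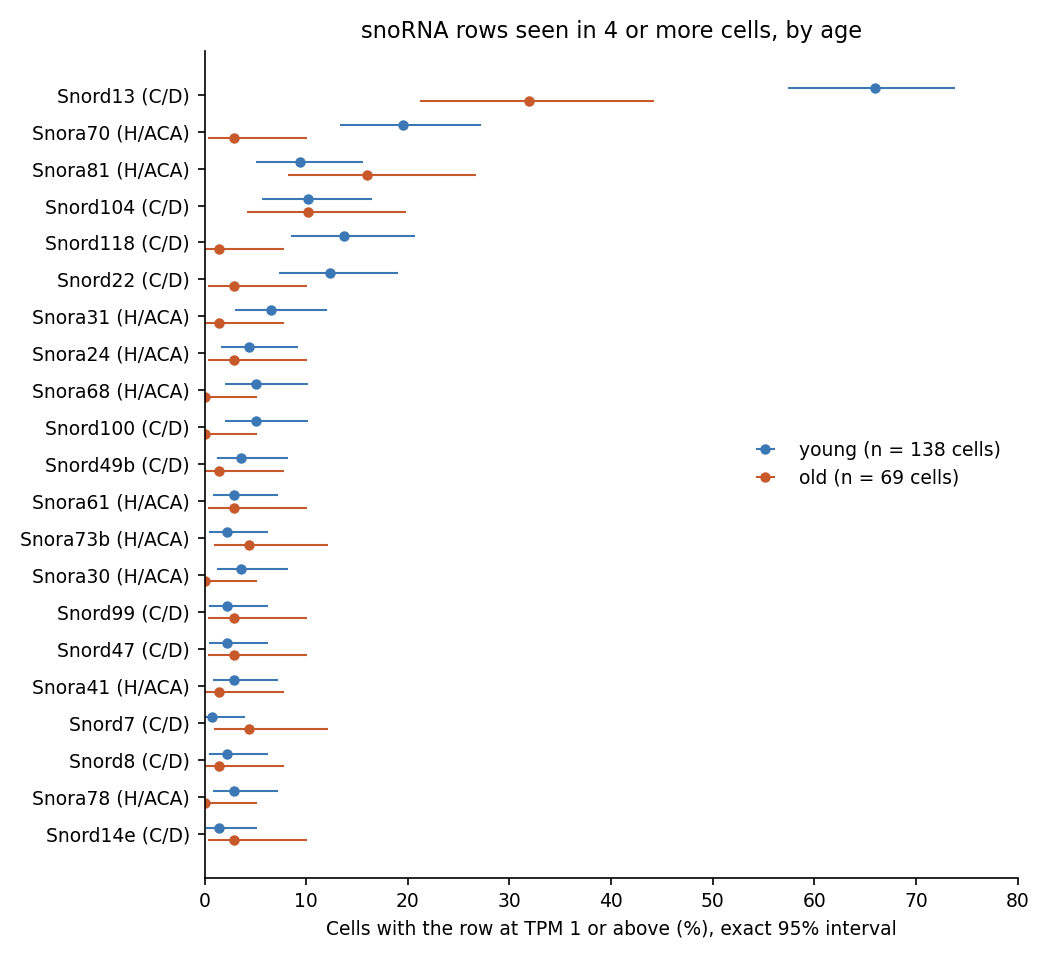
Share of cells (x axis, percent, with exact 95% binomial intervals that cover counting error only) in which each snoRNA row seen in 4 or more cells reached TPM 1, with young cells in blue and old cells in orange. Snord13 stood far to the right at both ages, at 65.9% of young and 31.9% of old cells, and Snora70, Snord118 and Snord22 were seen mostly in young cells.

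A larger share of the H/ACA than of the C/D members was seen. In at least 1 cell, 24 of 38 H/ACA rows (63.2%) and 32 of 76 C/D rows (42.1%) were seen. C/D minus H/ACA was thus -21.1 percentage points. By cells the order was the reverse: 146 of 207 cells (70.5%) had a C/D row and 94 (45.4%) an H/ACA row. C/D rows gave 242 detections, 113 of them Snord13, and H/ACA rows gave 126. The classes differ in length: the median annotated length was 120.5 bases for H/ACA and 68 bases for C/D rows. Members of under 60 bases were seen in 3 of 20 cases (15%), those of 60 to 79 bases in 13 of 34 (38.2%), those of 80 to 99 bases in 14 of 21 (66.7%), those of 100 to 119 bases in 10 of 14 (71.4%) and longer ones in 16 of 25 (64%). Among members of 80 bases or more, 17 of 25 C/D rows (68%) and 23 of 35 H/ACA rows (65.7%) were seen. Below 80 bases these counts were 15 of 51 C/D rows (29.4%) and 1 of 3 H/ACA rows. Within the C/D class the seen rows had a median length of 82.5 bases and the unseen ones of 64.5 bases, and within the H/ACA class 119.5 and 121 bases. These lengths are those of RefSeq, and GENCODE often gives other ones. For the seen rows under 60 bases, GENCODE gives 74 bases for Snord99, 72 for Snord65 and 66 for Snord52. For Snora61, the seen H/ACA row below 80 bases, it gives 130 in place of 62. Snord104 is shorter in GENCODE, at 70 in place of 73. The shares by length were not repeated with GENCODE lengths. The part of length in the class difference was not tested.

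**Figure D2:**
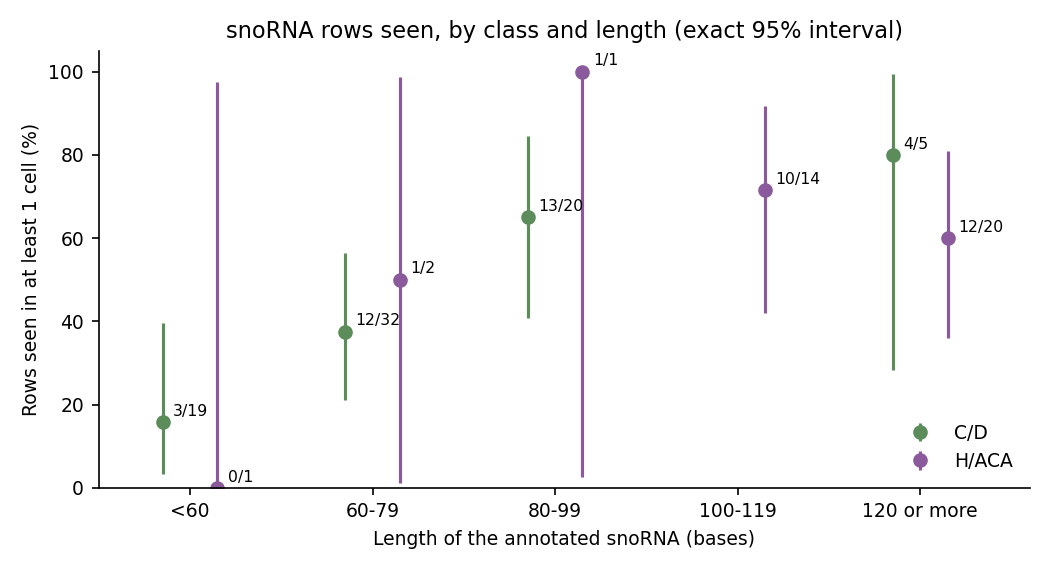
Percent of snoRNA rows seen in at least 1 cell (y axis, with exact 95% binomial intervals) by RefSeq length in bases (x axis). C/D rows are in green and H/ACA rows in purple, with the counts seen and in all beside each point. The C/D share goes from 3 of 19 rows under 60 bases to 13 of 20 rows of 80 to 99 bases, and the H/ACA rows lie almost all at 100 bases or more.

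Seen and unseen members were also compared by their host genes. The host row, taken as the annotated gene that holds the member, on the same strand wherever GENCODE gives the strand, had a median over members of 20.5 TPM for seen and 28.0 TPM for unseen members. Members in hosts with a mean under 10 TPM were seen in 16 of 34 cases (47.1%), those with hosts of 10 to under 100 TPM in 24 of 43 (55.8%) and those with hosts of 100 TPM or more in 14 of 32 (43.8%). By kind of host, 16 of 23 members inside Snhg genes, Gas5, Zfas1 or Dancr were seen (69.6%) and 13 of 31 inside ribosomal protein genes (41.9%). By position, 26 of 47 members that lie wholly inside an annotated exon of another gene on the same strand (55.3%) were seen, and 23 of 55 in introns (41.8%). The exons include those of retained-intron transcripts. Among the other short RNAs of the table, 4 of 9 Scarna rows (small RNAs of the Cajal body) and 138 of 1135 microRNA rows (12.2%) were seen, and 19 of 23 Rnu and Rn7s rows (82.6%), the RNAs of the spliceosome and the signal recognition particle among them.

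Each cell showed few of the members. A cell held a mean of 1.78 seen rows (207 cells, from 0 to 7), 43 cells had none and 62 had exactly 1. The cell with the most, a young cell of the second stretch, had 7: Snord13, Snord118, Snord100, Snora61, Snora41, Snord65 and Snord90. Young cells had 2.07 ± 1.58 rows (median 2, from 0 to 7) and old cells 1.20 ± 1.13 rows (median 1, from 0 to 4). At least 1 row was seen in 118 of 138 young cells (85.5%, exact 95% interval 78.5 to 90.9%) and in 46 of 69 old cells (66.7%, 54.3 to 77.6%). These intervals, and all others here, cover counting error only. By stretch, the mean number of rows was 1.26 and 2.58 in the young and 1.35, 0.969 and 1.47 in the old cells, so the second young stretch lay above the rest. Without cells 55 to 138, the median of old minus young cells was 0 rows in place of -1.

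Over all cells together, the number of seen snoRNA rows rose loosely with the number of detected rows, but within the stretches it did not do so throughout. Per 1000 detected rows, the 5 stretches had 0.356, 0.540, 0.295, 0.261 and 0.406 seen snoRNA rows. Over all 207 cells, which share the stretches, the correlation of seen snoRNA rows with detected rows was r = 0.31 (Spearman's rho = 0.27), and within the stretches r ran from -0.13 to 0.25. These are descriptions across cells of 2 samples. The summed snoRNA level was 42.0 ± 43.9 TPM in young cells. It was 31.2 ± 56.4 TPM in old cells, and the log2 of the old mean over the young mean was -0.42. Its means by stretch were 20.8 and 55.6 TPM (young) and 52.9, 18.8 and 29.0 TPM (old). Of the 52.9 TPM in cells 139 to 158, the single row Snord7 gave 27.8 TPM, all from 3 cells. Within the young cells alone, cells 55 to 138 lay above cells 1 to 54 by 1.38 on the log2 scale, and without cells 55 to 138 the ratio of old over young turned to 0.56. C/D rows gave 33.7 TPM in the young cells and 26.5 TPM in the old ones, H/ACA rows 8.31 and 4.68 TPM.

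**Figure D3:**
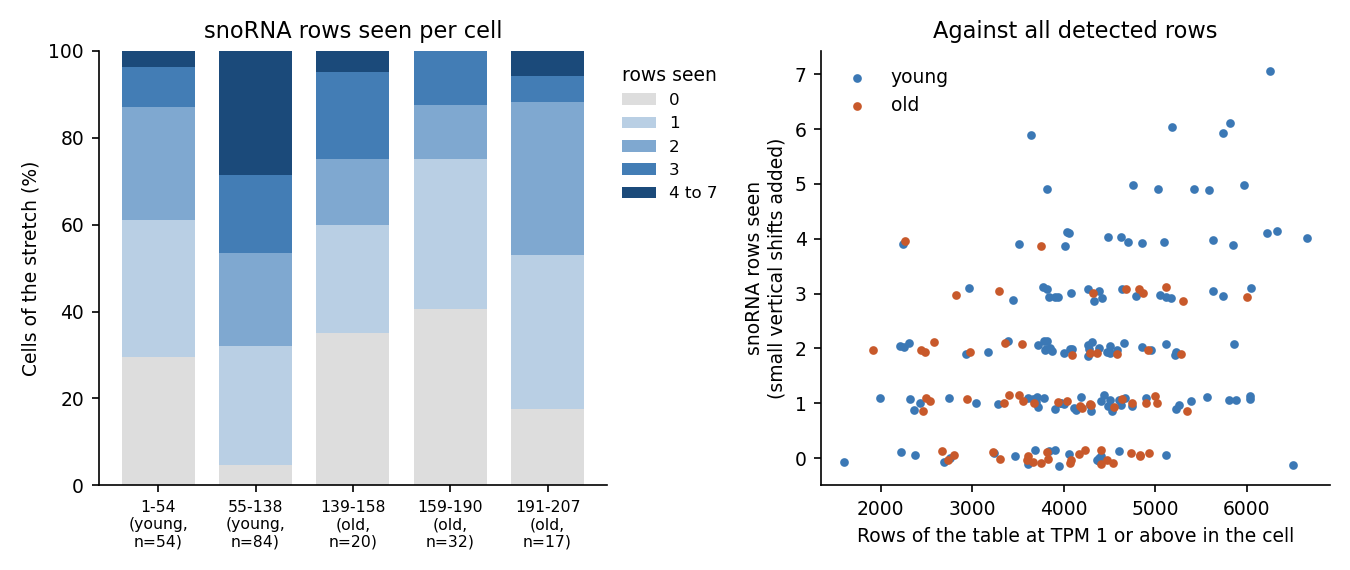
Left, percent of cells of each stretch (y axis) with 0, 1, 2, 3 or 4 to 7 snoRNA rows seen (shades of blue); right, snoRNA rows seen in each cell (y axis, shifted slightly to part the points) against all rows of the table at TPM 1 or above in that cell (x axis), young in blue and old in orange. Cells without any snoRNA row are rare in cells 55 to 138, where 80 of 84 had at least 1, and cells with few and with many rows overlap widely in detected rows.

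Snord13 made up much of the signal, with 49.0% of all snoRNA TPM and between 19.9% (cells 139 to 158) and 67.4% (cells 159 to 190) by stretch. In cells 139 to 158, Snord7 had a mean of 27.8 TPM from 3 cells, against 10.5 TPM for Snord13. U13 is known to pair with the precursor of 18S ribosomal RNA and to guide its acetylation. It has a transcription unit of its own: no annotated gene on its strand holds it. Where Snord13 was seen, its median was 27.5 TPM in the young cells and 22.7 TPM in the old ones.

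Snord13 was seen in fewer of the old than of the young cells, a comparison added after the data had been seen. It reached TPM 1 in 91 of 138 young cells (65.9%, 57.4 to 73.8%) and in 22 of 69 old cells (31.9%, 21.2 to 44.2%), a difference of -34.1 percentage points. The lowest, median and highest values were 0, 11.9 and 130.9 TPM in young cells and 0, 0 and 202.7 TPM in old cells. The ranges overlapped fully, and the highest cell of all was an old one. In the young stretches the share was 46.3% (32.6 to 60.4%) and 78.6% (68.3 to 86.8%), and in the old ones 30.0% (11.9 to 54.3%), 31.2% (16.1 to 50.0%) and 35.3% (14.2 to 61.7%). Every old stretch thus lay below both young ones, though the intervals of cells 1 to 54 and of the old stretches overlapped. Among the 12585 rows of the table seen in 10 or more cells, 8.54% had every old stretch below every young stretch and 3.29% had every old stretch above. Of the 7 members that frequent, Snord13, Snora70, Snord118 and Snora31 had every old stretch below and none had every old stretch above. Snora70 was seen in only 2 old cells, and Snord118 and Snora31 in 1 each. For Snora31 the order rests on 3.1% of cells 159 to 190 against 3.7% of cells 1 to 54. The shares over all rows include rows seen in far more cells than most members and were not matched for this, so the counts describe the members only.

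The size of that difference depended on which young cells were used. Between stretches alike in Malat1, old cells 159 to 190 minus young cells 1 to 54 gave -15.0 percentage points, and old cells 139 to 158 minus young cells 55 to 138 gave -48.6 points. Mean Snord13 gave a less even picture than the share. It was 21.7 ± 26.6 TPM in the young cells and 13.1 ± 32.0 TPM in the old ones, a log2 ratio of -0.69, and by stretch 11.5 and 28.3 TPM (young) and 10.5, 12.7 and 17.0 TPM (old). The ratio was 0.13 for cells 159 to 190 against cells 1 to 54, where 1 old cell held 202.7 TPM, and without the highest cell on each side it was -0.60. Within the stretches, cells with and without Snord13 had close numbers of detected rows, with medians of 4673 and 4463 in cells 55 to 138 and of 3694 and 3634 in cells 159 to 190. Malat1 also differed little between them in cells 55 to 138, with means of 3172 TPM with and 3446 TPM without Snord13. The part that detected rows or Malat1 play between the stretches was not tested.

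**Figure D4:**
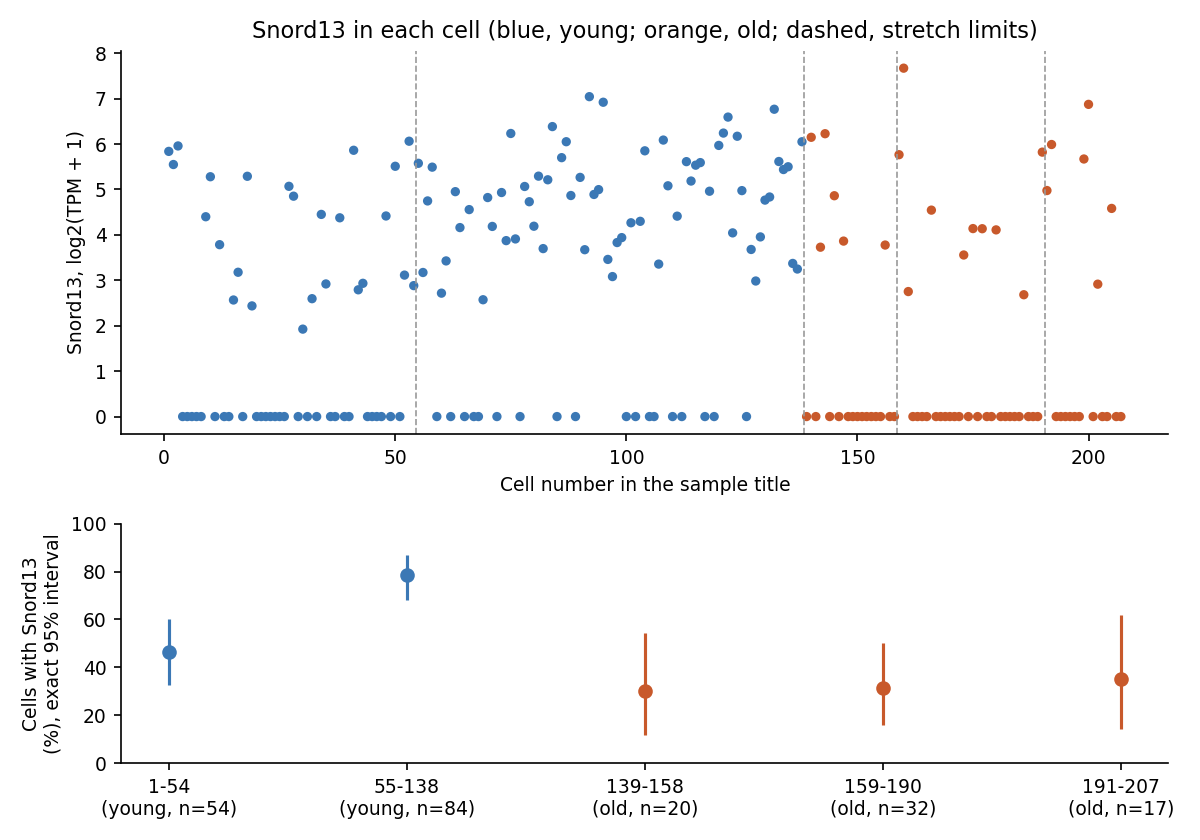
Top, Snord13 in each of the 207 cells as log2(TPM + 1) (y axis) against the cell number in the sample title (x axis), young in blue, old in orange, with dashed lines at the limits of the stretches; bottom, percent of cells of each stretch with Snord13 at TPM 1 or above, with exact 95% intervals. Cells at 0 are sparse between 55 and 138 and dense among the old cells, while the values above 0 cover a similar range at both ages.

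Of the 4 members without a host row, 2 were seen, Snord13 and Snord118. Snord118 (U8), known for a part in the maturation of 5.8S and 28S ribosomal RNA, was seen mostly in young cells. It was found in 19 of 138 young cells (13.8%, 8.50 to 20.7%) and in 1 of 69 old cells (1.45%, 0.0367 to 7.81%). Of the young cells with it, 15 were in cells 55 to 138 and 4 in cells 1 to 54. Its median was 0 TPM at both ages, its highest value 141.2 TPM in a young and 15.1 TPM in the old cell, and its mean 4.19 ± 16.7 TPM in the young cells and 0.219 ± 1.82 TPM in the old ones. The log2 ratio was -2.09, and -0.60 without cells 55 to 138. Tmem107, which ends 133 bases away on the same strand, had 36.3 TPM in the young cells and 30.9 TPM in the old ones. Tmem107 was seen in 16 of the 20 cells with Snord118 (80%) and in 60.4% of the others. GENCODE holds 1 more gene that is nearly identical to Snord118, so its reads may be divided between them.

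Snora70, inside an annotated exon of the ribosomal protein gene Rpl10 on chromosome X, was the H/ACA row seen most. Annotated exons, here and below, include those of retained-intron transcripts, so a member inside one may lie in an intron of the spliced host. It was seen in 27 young cells (19.6%, 13.3 to 27.2%) and 2 old cells (2.90%, 0.353 to 10.1%). The highest values, 20.7 TPM in a young and 21.3 TPM in an old cell, were alike, and the medians were 0. Rpl10 itself was seen in all 207 cells and had a mean of 415.9 TPM in the cells with Snora70 and 262.2 TPM in the others. Snora31, in an intron of Tpt1, which encodes the translationally controlled tumour protein, was seen in 9 young cells and 1 old cell, and Tpt1 was seen in every cell, at 489.9 TPM with Snora31 and 293.7 TPM without. Snord22, inside an annotated exon of Snhg1, was seen in 17 young cells (12.3%, 7.34 to 19.0%) and 2 old cells (2.90%), and 15 of the young ones lay in cells 55 to 138. Snhg1 was seen in 13 of the 19 cells with Snord22 (68.4%) and in 38.3% of the others. Its mean with and without Snord22 was 43.6 ± 86.3 and 17.4 ± 46.7 TPM in cells 55 to 138. In cells 1 to 54 it was 6.58 and 6.54 TPM. The 1 cell with Snord22 in cells 159 to 190 had 1.46 TPM against a mean of 16.3 TPM. The 1 in cells 191 to 207 had 0.505 TPM against 3.84 TPM.

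Snord104 and Snora81 were not seen less often in old cells. Snord104 was found in 14 young (10.1%, 5.66 to 16.4%) and 7 old cells (10.1%, 4.18 to 19.8%), with highest values of 40.9 and 36.4 TPM. It lies inside a 297-base row, Gm36220, whose strand is not given here and which was seen in 202 cells. Snora81 was found in 13 young (9.42%, 5.11 to 15.6%) and 11 old cells (15.9%, 8.24 to 26.7%), and its intervals overlapped widely. Its mean was 0.866 ± 3.53 TPM in the young cells and 2.35 ± 10.5 TPM in the old ones, with 1 old cell at 83.1 TPM. The log2 ratio was 0.84, and 0.36 without the highest cell of each age, which is under 1.5-fold. It was also under 1.5-fold without cells 191 to 207 (0.22).

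Snora81 went with a low level of its host, Eif4a2, which encodes an RNA helicase of translation initiation. The row lies wholly inside an annotated Eif4a2 exon. Eif4a2 had a mean of 67.0 TPM in the 24 cells with Snora81 and 227.9 TPM in the 183 others. In every stretch the cells with Snora81 were lower: 17.1 ± 30.0 against 174.4 ± 226.0 TPM in cells 1 to 54, 114.8 ± 118.6 against 259.7 ± 168.3 TPM in cells 55 to 138, 105.3 ± 144.9 against 359.3 ± 320.3 TPM in cells 139 to 158, 2.32 ± 2.55 against 134.2 ± 144.4 TPM in cells 159 to 190 and 57.3 ± 53.7 against 272.7 ± 307.4 TPM in cells 191 to 207. The numbers of cells with Snora81 were 4, 9, 2, 4 and 5. The 24 cells fell into 2 sets. In 11 of them (5 young, 6 old) Eif4a2 was at or below Snora81, between 0.167 and 6.68 TPM, and in 13 (8 young, 5 old) it was above, between 22.9 and 320.3 TPM. Among the cells without Snora81, 20 of 183 (10.9%) had Eif4a2 at 10 TPM or below. How the counting program divided reads between a snoRNA and the exon around it is not given in the sources used here, and its part was not tested.

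**Figure D5:**
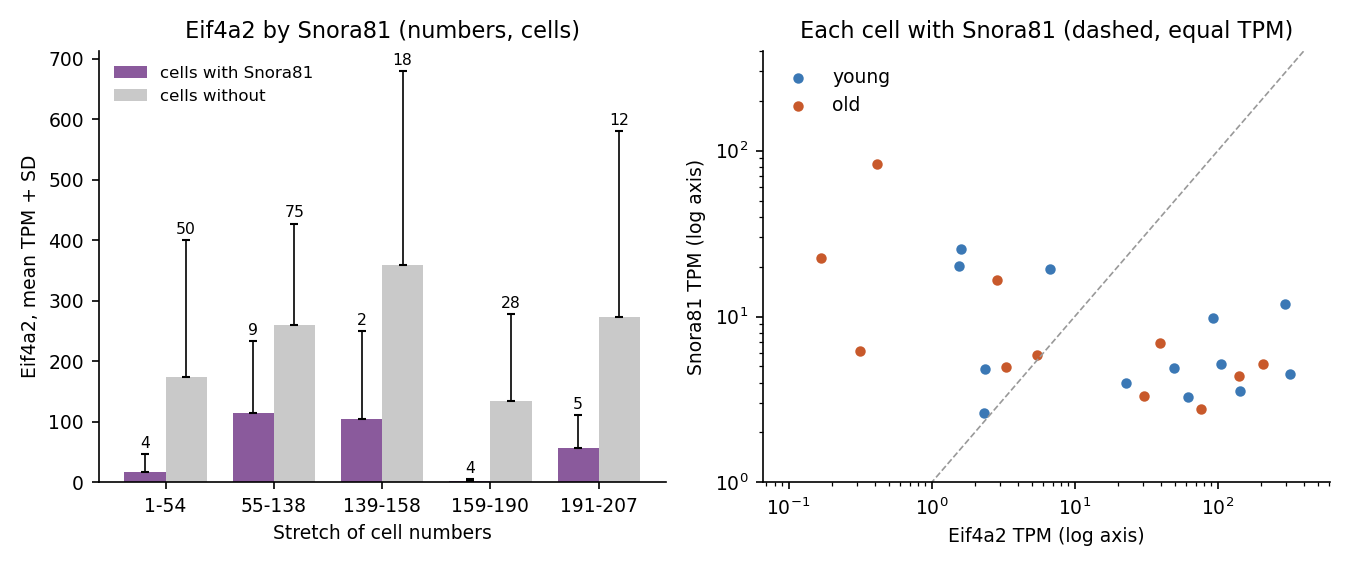
Left, mean Eif4a2 TPM (bars, with 1 SD over cells above) in cells with (purple) and without (grey) Snora81 in each stretch, with the number of cells above each bar; right, Snora81 TPM against Eif4a2 TPM (both log axes) in the 24 cells with Snora81, with a dashed line where both are equal. The purple bar is lower in all 5 stretches, and the points on the right form a set with Eif4a2 under 7 TPM and a set above 20 TPM.

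Most members went the other way. Of 54 seen members with a host row in the table, 35 had a higher mean of the host in the cells with the member than in the others. Of the 54, 19 were seen in exactly 1 cell, so that for these the mean is 1 value. The host was seen in 208 of 235 detections (88.5%, 83.7 to 92.3%), whereas the same hosts, weighted by detections, were seen in 72.4% of all cells. Detections share members, hosts and cells, and the interval treats them as separate. The comparison was not matched for detected rows or stretch. Median detected rows were higher with than without Snora70 (4641 and 4185.5), Snord104 (4824 and 4172.5) and Snord22 (4484 and 4172.5). They were lower with than without Snora81 (3813.5 and 4264) and Snora31 (4024 and 4263). For 4 of the 54 members, Snord104, Snord7, Snora43 and Snora17, the strand of the host row is not given, and without their 28 detections the share was 180 of 207 (87.0%). For 39 of the 54 members the host was seen in every cell that had the member, and in 9 detections the host was at 0. Snora24, inside an annotated exon of Snhg8, is an example: Snhg8 had a mean of 167.8 TPM in the 8 cells with Snora24 and 15.9 TPM in the others, and was seen in all 8 and in 48.2% of the others. Snord99 had Snhg12 at 149.6 TPM in its 5 cells and 3.51 TPM elsewhere. In 71 of the 235 detections the member had the higher TPM. Snord17 in Snx5, named here after its values were seen, was the reverse: in its 3 cells, all old, Snx5 stayed under 1 TPM, against a mean of 39.6 TPM elsewhere.

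Several hosts hold more than 1 member. Rpl13a holds 4 members, Snord32a, Snord33, Snord34 and Snord35a, which are known for a part in the response to lipid stress. Rpl13a was seen in all 207 cells at a mean of 293.3 TPM, yet Snord35a was seen in 2 young cells, Snord33 in 1 old cell, and Snord32a and Snord34 in none. Of the 4 members in Snhg12, Snora61 was seen in 6 cells, Snord99 in 5 and 1 more in 1 cell, for 12 detections in all. The 3 Snord14 rows in Hspa8, the constitutive heat shock cognate protein, were seen in 6 detections, 4 of them Snord14e. The 3 rows in the noncoding gene 2410006H16Rik gave 10 detections, 6 of them Snord49b. In all hosts with 2 or more members, 3 cells showed 2 of them at once, 1 cell each for Eif4a2, Snhg12 and Snhg3. Snhg3 is the host of Snora73a, seen in 2 young cells, and of Snora73b, seen in 3 young and 3 old cells; the pair is nearly identical, so their reads may be divided between them. Of the brain-enriched Snord116 cluster in Snhg14, the rows used here are Snord116l1, at 0 in every cell, and Snord116l2, seen in 1 old cell at 11.7 TPM; 69 other GENCODE genes are nearly identical to it. By the same search, 23 of 112 members had a near-identical copy elsewhere, 12 of them seen, among these Snora81, Snora68 and Snora30.

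The highest single values belonged to Snord7, a guide to a methylation on the U6 spliceosomal RNA. It was seen in 4 cells, at 47.2 TPM in young cell 107 and at 306.9, 210.0 and 40.1 TPM in old cells 141, 150 and 153, all 3 in the stretch 139 to 158. It sits inside 2 annotated rows, AI450353 and AA465934. In the same cells AI450353 had 21.1, 226.8, 226.3 and 13.3 TPM and AA465934 had 4.93, 63.8, 62.8 and 45.1 TPM. AI450353 was seen in 14 cells in all, and its mean was 121.9 TPM in the Snord7 cells and 0.366 TPM in the others. The mean of Snord7 was 0.342 TPM in the young cells and 8.07 TPM in the old ones, a log2 ratio of 2.76 that turned to -0.42 without cells 139 to 158.

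By mean level, 9 members could be compared between ages, as rows with a mean of 1 TPM or above at either age: Snord13, Snora70, Snora81, Snord104, Snord118, Snord22, Snora68, Snora30 and Snord7. In old cells, 6 of them were at least 1.5-fold lower (Snord13, Snora70, Snord118, Snord22, Snora68 and Snora30) and 2 at least 1.5-fold higher (Snora81 and Snord7) on the scale of log2(mean TPM + 1). Of all 12155 rows that passed the same filter, 26.4% were as much lower and 16.8% as much higher. The median log2 ratio was -0.86 over the 9 members and -0.10 over all rows. Only 2 of the 9, Snord13 and Snord104, passed the filter at both ages, and the other 7 passed through the age where they were high, so the count describes them and supports no direction. Without cells 55 to 138, 1 member was lower and the median ratio over the members that passed was 0.47. With TPM rescaled to leave out Ins1, Ins2 and the mitochondrial genome, 5 members were higher and 14 lower. Snora68 and Snora30, in an intron of Srcap, were seen in 7 and 5 young cells and were listed at 0 in every old cell, which allows a share of up to 4.35% of old cells, taken as 3 of 69, with an exact 95% interval that ends at 5.21%. For Snora30, 1 young cell at 122.3 TPM held 70.6% of the total. In all, 25 members were seen only in young cells (44.6% of 56), 7 only in old cells (12.5%) and 24 at both ages, with 138 and 69 cells to be seen in. Of all 20487 rows seen, 15.8% were seen only in young and 5.79% only in old cells. Among rows as rare as most members, seen in 1 to 9 cells, these shares were 40.6% and 15.0% of 7902 rows and 51.0% and 14.3% of 49 members.

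The same comparison within the young cells gave differences as large. With cells 55 to 138 set against cells 1 to 54, 10 members passed the filter, 7 were at least 1.5-fold higher and 0 were 1.5-fold lower, against 29.3% and 26.7% of 12082 rows. Their median log2 ratio was 1.01, and that of all rows 0.02. Snord118 was at 0.849 and 6.34 TPM in the 2 stretches, Snord13 at 11.5 and 28.3 TPM, Snord104 at 0.700 and 2.01 TPM and Snora70 at 1.02 and 2.00 TPM. Here too 7 of the 10 passed only on the side where they were high. At least once, 45 members were seen in the 84 cells 55 to 138 and 21 in the 54 cells 1 to 54. Among members seen in 1 to 9 cells of the series, 38 of 49 (77.6%) and 14 of 49 (28.6%) were seen in these stretches, and among all rows that rare 73.4% and 39.6%.

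The proteins that work with snoRNAs did not move as 1 group between ages. Of the 4 C/D core proteins, fibrillarin (Fbl) was at 16.8 ± 55.3 TPM in the young cells and 4.85 ± 14.1 TPM in the old ones, a log2 ratio of -1.60, and Nop56, Nop58 and Snu13 differed by less than 1.5-fold. Of the 4 H/ACA core proteins, Nhp2 was higher in old cells by 0.94 and Gar1 differed by -1.57 on the log2 scale, while dyskerin (Dkc1) and Nop10 differed by less than 1.5-fold. Of 13 measured genes of snoRNP assembly and transport, 4 were at least 1.5-fold higher (Ruvbl2, Pih1d1, Phax and Coil) and 2 lower (Naf1 and Nufip1), with a median of 0.32. Of 20 noncoding host genes, 2 were higher (Snhg11 and Snhg15) and 6 lower (Snhg1, Snhg6, Snhg8, Snhg12, Snhg14 and Snhg16), with a median of -0.43. In all 41 listed genes the SD over cells exceeded the mean at both ages, as with Snhg8 at 26.6 ± 63.8 TPM in the young cells and 12.1 ± 27.7 TPM in the old ones. These counts stand beside the 26.4% lower and 16.8% higher of all rows. Some of these age ratios depended on the stretch. Within the young cells, cells 55 to 138 over cells 1 to 54, Fbl differed by -1.83 and Gar1 by -1.96. Ruvbl2 had 30.4 TPM in cells 159 to 190 and 5.62 and 2.99 TPM in the other old stretches. Pih1d1 had 23.6 TPM in cells 191 to 207 and 1.79 and 1.21 TPM in the others. For Snhg1 the ratio was 1.16 for cells 159 to 190 against cells 1 to 54. For cells 139 to 158 against cells 55 to 138 it was -3.59.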

How the data were processed

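The values are TPM per gene and cell that the authors deposited in 1 table, whose columns each sum to 1000000. The columns were matched to the samples by title, and 0 columns were left unused. Per the labels' protocols the libraries came from the C1 chip with SMARTer and Nextera XT. Per the submitters' processing notes the build was GRCm38 (mm10), and the tools named are CASAVA 1.8.2 and FastQC. Aligner, annotation, program for counting, strand handling and read depth: not given in the sources used here.

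Rows are NCBI Gene numbers, and 39725 of 44448 had a symbol in the RefSeq table of assembly GRCm38.p6. That table gave the lengths and the rows that hold a member. Strand, exons and sequences came from GENCODE M21 (GRCm38); some sequences and host genes are not reported here. Where several rows held a member, named genes were taken before gene models and the shortest among them was used. Copies were searched with blastn 2.17.0 at 95% identity over 90% of the length. A row was seen in a cell at TPM 1 or above. Ratios are log2((mean old + 1)/(mean young + 1)), which understates differences of low rows, over rows with a mean of 1 TPM or above at either age. Shares carry exact Clopper-Pearson 95% intervals. No p-value was computed, since each age is 1 sample. The ratio was tested on simulated data drawn from young cells: with 200 of 44448 rows changed by known folds, the largest error of a group's median was 0.16 on the log2 scale. A group was all changed rows of the same fold and direction. The changed rows were drawn from rows with a young mean of 10 TPM or above, which Snord13 alone reaches among the members. The error of a single row, or of rows as low as the other members, was not tested.

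The members, the gene lists, the stretches and the rule for named rows were chosen with earlier results of these data known. The rule took the 12 members seen in the most cells, the 8 with the highest mean, the 6 most seen H/ACA rows, the 5 largest ratios each way between ages and the 4 largest each way between the young stretches, the members of the 4 hosts with the most members, and a short list fixed by name. Tools were Python 3.11.15, pandas 2.3.3, numpy 2.4.6, scipy 1.17.1 and matplotlib 3.10.9.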

Additional observations from a re-analysis of the deposited data

How the results depend on the processing

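Of 84 alternatives run on the log2 ratio of single members between ages, 51 stayed within 1.5-fold, 28 moved by more than that and 5 turned. Without cells 55 to 138 the ratio of Snord13 was 0.18, and with old cells 159 to 190 against young cells 1 to 54 it was 0.13. Snord104 was at -0.0645 without cells 1 to 54 and at -0.75 without cells 139 to 158, and Snord7 at -0.42 without the latter. At TPM 10 or above, 38 members were seen in place of 56, and the difference between the classes was -17.1 points in place of -21.1. At TPM above 0 both could only stay the same, since no member had a value between 0 and 1 TPM. The median difference in seen rows per cell was 0 without cells 55 to 138 and 0 for cells 159 to 190 against cells 1 to 54. The log2 ratio of summed snoRNA TPM between ages came to -1.19 when mean log2(TPM + 1) values were subtracted and 0.56 without cells 55 to 138, and between the young stretches it was 2.01 as a difference of mean logs.

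The count of members higher in old cells, 2, became 1 with a pseudocount of 10, without cells 139 to 158 or without cells 191 to 207; 0 as a difference of mean logs, with a filter at a mean of 10 TPM or for cells 159 to 190 against cells 1 to 54; and 5 for cells 139 to 158 against cells 55 to 138 or after rescaling without Ins1, Ins2 and mitochondrial rows. The count of members lower, 6, became 0 with a pseudocount of 10, 1 as a difference of mean logs, with the filter at 10 TPM or without cells 55 to 138, 2 for cells 159 to 190 against cells 1 to 54 and 14 after that rescaling, where more rows pass the filter. The median ratio was -1.68 and -0.15 with pseudocounts of 0.1 and 10, -0.21 as a difference of mean logs, 0 with no filter, 0.47 without cells 55 to 138 and -0.27 for cells 159 to 190 against cells 1 to 54. The share of detections with the host seen was 96.2% at TPM above 0 and 75.7% at TPM 10 or above. The difference in the share of cells with Snord13, and its alternatives, were added after the data had been seen. This difference was -46.7 points without cells 1 to 54 and -14.4 without cells 55 to 138. It was -15.0 for cells 159 to 190 against cells 1 to 54 and -48.6 for cells 139 to 158 against cells 55 to 138. Beyond what the construction of an alternative shows, the cause was not tested. No paired analysis was possible because the labels name no animal and the result comes from no test. Depth per cell is unknown, so the precision of a single TPM value is not given.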
